A study of Mus musculus with 12 samples.

Results

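RNA of sorted hematopoietic stem cells (HSCs) of irradiated mice was compared with that of control mice, taking 6 of the 12 RNA-seq libraries of the series. The 3 libraries titled IR and the 3 titled Ctrl were chosen by their titles alone. All mice were wild type (WT), the source was bone marrow, and IR cells were collected 3 days after the animals received a single total body exposure to gamma rays, whereas Ctrl mice carry no treatment in the labels. According to the study's methods, the sort gate was Lineage-, Sca-1+, c-Kit+, Flt3- and CD34-. The other 6 libraries are of irradiated mice with a further treatment (Ab_IR and L_IR). The study's methods describe its mice as matched for age and name males for transgenic animals and their littermates, without giving the age or the number of animals behind a library, and no label says that the 3 libraries of a group came from separate animals, so p-values measure only the spread between these libraries.

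HSCs sit at the top of blood formation and give rise to erythroid, megakaryocytic, myeloid and lymphoid cells through progenitors that switch on lineage transcription factors and cytokine receptors. Ionizing radiation kills dividing marrow cells, and the surviving stem and progenitor cells then have to restore the pool under strong demand for mature cells. The fate of a progenitor is read from a few antagonistic regulators, such as GATA1 for erythroid and megakaryocytic cells and PU.1 for myeloid cells, and from the receptors and metabolic enzymes that go with them.

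Values are FPKM, fragments scaled to gene length and library size, and fold changes are differences of log2(FPKM + 1), which understate the change of genes with low values. A gene is said to have risen or fallen at an adjusted p under 0.05 and to be called when its log2 fold change is also beyond 1 in size. Of 12066 genes that reached 1 FPKM in 3 or more of the 6 libraries, 2117 rose (17.5%) and 3089 fell (25.6%). Called were 366 higher (3.03%) and 552 lower (4.57%) genes. After quantile normalization 2450 genes rose and 2363 fell, so the share of rises among the changed genes went from 40.7% to 50.9%. When genes averaging under 10 FPKM were left out it was 57.5%, and with a pseudocount of 0.1 there were 457 higher and 908 lower calls. The median log2 fold change over all genes was -0.05 as deposited and 0.02 after quantile normalization. In 58.1% of genes the 3 values of one group all lay above the 3 of the other. These percentages are the background against which the counts of listed genes below are set. The lists hold 971 genes in 37 groups, of which 853 could be tested. A member that reached 1 FPKM only in the group where it is high had to differ, so the counts describe the tested members and not the lists as a whole.

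Ctrl replicate 1 stood apart from the other 5 libraries. It listed 44.1% of gene rows at 0, against 25.3% to 26.4% in the others. Nppa, an atrial hormone gene, was listed at 0, 51.8 and 62.5 FPKM in Ctrl and at 51.2, 63.9 and 60.7 FPKM in IR. All 9 tested genes of a heart muscle list moved with it. Their log2 fold changes were 0.67 to 1.99 with 6 libraries, none at an adjusted p under 0.05, and -0.08 to 0.34 without Ctrl replicate 1, where 1 of them rose. Every comparison was therefore repeated without that library. There, 25.1% of the same genes rose and 34.8% fell, 2.94% were called higher and 4.67% lower, and the groups did not overlap in 74.5%. Of the called genes, 316 higher and 491 lower ones were called in both fits. The other 844 tested list genes moved by at most 0.5 on the log2 scale, and all 509 of them that had risen or fallen kept their direction. Immunoglobulin genes made up 9.0% to 11.1% of the FPKM sum in Ctrl and 17.2% to 18% in IR.

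**Figure D1:**
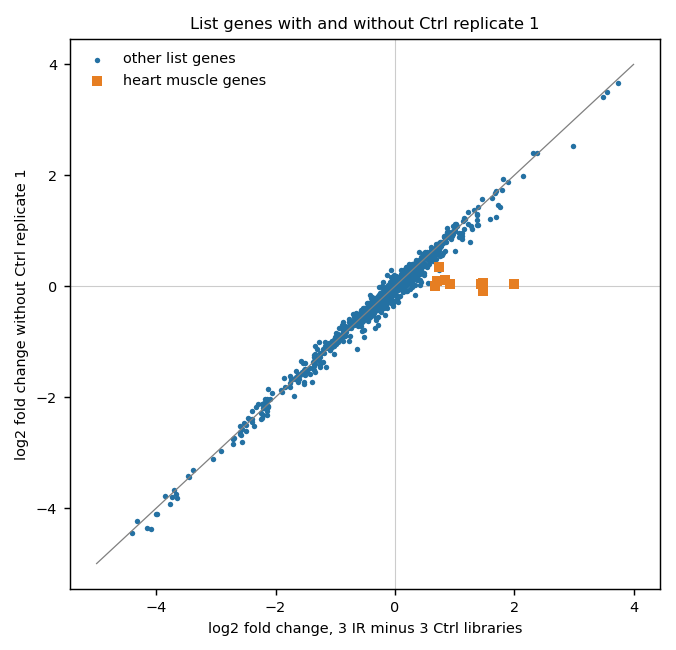
Log2 fold change of each tested list gene from all 6 libraries (horizontal axis) against that without Ctrl replicate 1 (vertical axis), with the line of equality. The 844 other genes (blue points) lie within 0.5 of the line, while the 9 heart muscle genes (orange squares) fall from 0.67 to 1.99 to between -0.08 and 0.34.

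The HSC label was checked against markers. Ly6a, which encodes Sca-1, was listed at 25.9, 41.1 and 38.2 FPKM in Ctrl and at 53.7, 60.5 and 61.5 FPKM in IR. Kit, the stem cell factor receptor of the same gate, was present as well, with values given further on. Cd34, which the gate excludes, was listed at 19, 20.4 and 20.6 FPKM in Ctrl and at 3.78, 3.91 and 3.66 FPKM in IR. CD34 transcript was therefore present in every library and fell in IR (log2 fold change -2.13, SE 0.0641, adjusted p = 7.9e-06), whereas Ly6a was higher in each IR library than in any Ctrl library (log2 fold change 0.75, SE 0.173, adjusted p = 0.0144). Of 33 genes listed as HSC-enriched, which also hold progenitor genes such as Cd34 and Cd48, 14 did not pass the filter, among them Procr, Mecom, Hoxb5, Fgd5 and Slamf1. Procr, the HSC surface receptor EPCR, was listed at no more than 0.75 FPKM in any library. Genes of maturing cells were abundant in Ctrl, for example the neutrophil enzyme gene Mpo at 3143 ± 287 in Ctrl and 3179 ± 62 FPKM in IR (mean ± SD, n = 3), Hba-a1 of adult hemoglobin at 1055 ± 139 in Ctrl and 175 ± 1.29 FPKM in IR, and the eosinophil granule gene Prg2 at 3324 ± 590 in Ctrl and 240.3 ± 5.16 FPKM in IR. The cells are called HSCs here as labelled. In bulk RNA, fewer cells of a type and less RNA per cell cannot be told apart, which holds for every lineage gene below.

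Across the lists, transcripts of erythroid, megakaryocytic, eosinophil, mast cell and dendritic cell programmes, heme enzymes and interferon-stimulated genes were lower in IR. So were most tested members of the stem and progenitor factor and HSC-enriched lists. Of the latter, Procr, Mecom, Hoxb5, Fgd5 and Slamf1 could not be tested and Hlf did not pass. Late neutrophil genes, glycolysis genes, several receptors of activated myeloid cells and the plasma cell regulators were higher. Within most lists the members moved in both directions, so the following account goes by role.

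**Figure D2:**
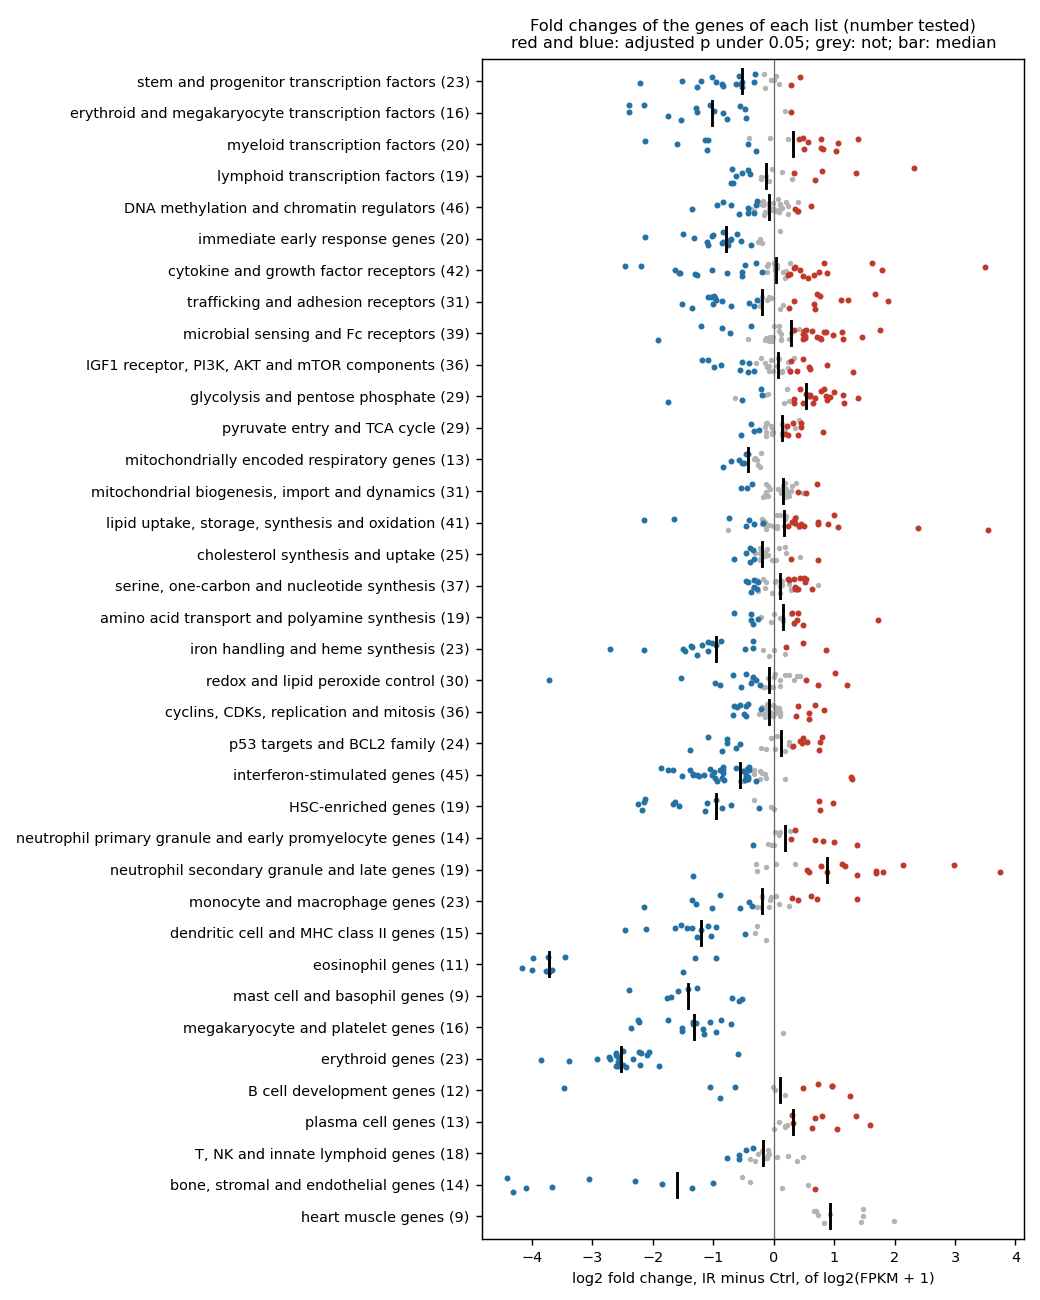
Log2 fold change (IR minus Ctrl, on log2(FPKM + 1)) of every tested gene of the 37 lists, with the number tested in brackets. Each point is a gene, red or blue where it rose or fell at an adjusted p under 0.05 and grey otherwise, and the black bar is the list median, lowest at -3.71 for eosinophil genes and -2.53 for erythroid genes.

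Regulators of stem and progenitor cells were mostly lower after IR. Of 33 such transcription factors, 23 were tested, 15 fell and 2 rose, with a median log2 fold change of -0.52. Sox4, a factor of progenitor and early lymphoid cells, was listed at 8.99, 8.73 and 8.48 FPKM in Ctrl and at 1.03, 1.02 and 1.25 FPKM in IR (log2 fold change -2.21, SE 0.0768, adjusted p = 1.3e-05). Gata2, which maintains HSCs and precedes GATA1 in progenitors, was listed at 17.1, 15.5 and 17 FPKM in Ctrl and at 5.07, 4.89 and 5.47 FPKM in IR (log2 fold change -1.51, SE 0.0718, adjusted p = 3.52e-05). Tal1, the partner of GATA factors in the same complex, was listed at 16.4, 22.9 and 23.8 FPKM in Ctrl and at 8.11, 7.96 and 8.3 FPKM in IR (log2 fold change -1.26, SE 0.139, adjusted p = 0.000826). For all 3 genes the highest IR library stayed below the lowest Ctrl library. Smaller falls were seen in Myb, required for definitive hematopoiesis, at 59.8 ± 7.85 in Ctrl and 40.6 ± 0.565 FPKM in IR (log2 fold change -0.54, SE 0.0973, adjusted p = 0.00559), and in Runx1, at 9.23 ± 1.2 in Ctrl and 7.21 ± 0.19 FPKM in IR (log2 fold change -0.31, SE 0.0952, adjusted p = 0.0391). Not every core factor moved: Lmo2, Erg, Hlf, Etv6 and Lyl1 had log2 fold changes of -0.16, -0.14, 0.00, 0.04 and 0.09 and did not pass the test, although Erg turned to a rise without Ctrl replicate 1 (log2 fold change 0.20, adjusted p = 0.015). Fli1, an ETS factor shared by HSCs and megakaryocytes, rose from 19.3 to 26.6 FPKM on average (adjusted p = 0.00139).

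The erythroid and megakaryocytic regulators fell almost throughout. All 16 factors of the list were tested, 14 fell, 8 of them by more than 1 on the log2 scale, and 1 rose, with a median of -1.03. Gata1 (chromosome X, 7959260 to 7978071, minus strand in GRCm38), the master factor of both lineages, was listed at 37.8, 36.8 and 38.8 FPKM in Ctrl and at 7.04, 6.18 and 6.0 FPKM in IR (log2 fold change -2.39, SE 0.0734, adjusted p = 8.57e-06). Gfi1b, a repressor that GATA1 activates and that both lineages need, was listed at 29.2, 30.3 and 33.2 FPKM in Ctrl and at 5.92, 4.41 and 4.86 FPKM in IR (log2 fold change -2.4, SE 0.107, adjusted p = 3.01e-05). Klf1, which switches on adult globin and red cell membrane genes, was listed at 49.8, 70.9 and 74.9 FPKM in Ctrl and at 13.7, 14.2 and 13.1 FPKM in IR (log2 fold change -2.15, SE 0.154, adjusted p = 0.000154). The libraries of the groups were far apart for Gata1 and Gfi1b, and Klf1 was lower in Ctrl replicate 1 than in the other Ctrl libraries yet still above all IR libraries. Without that library the fall of Klf1 was -2.33 (adjusted p = 1.82e-06). Zfpm1, encoding the GATA1 cofactor FOG1, went from a mean of 31 FPKM in Ctrl to 8.5 in IR (log2 fold change -1.74, SE 0.121, adjusted p = 0.000138), and Bcl11a, the silencer of fetal globin, from a mean of 6.95 FPKM in Ctrl to 2.8 in IR (log2 fold change -1.06, SE 0.0925, adjusted p = 0.000319). Nfe2, a factor of late megakaryocytes, fell less (log2 fold change -0.47, SE 0.081, adjusted p = 0.00491).

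Among myeloid regulators, several granulocytic factors rose and several monocytic factors fell. Of 20 tested, 10 rose and 7 fell. Spi1, which encodes PU.1, was listed at 68, 52.6 and 59.1 FPKM in Ctrl and at 127, 119 and 122 FPKM in IR (log2 fold change 1.03, SE 0.1, adjusted p = 0.000497). Cebpa, the factor that commits progenitors to granulocytes, was listed at 17.9, 25.2 and 26.4 FPKM in Ctrl and at 32.2, 34.4 and 37.1 FPKM in IR (log2 fold change 0.57, SE 0.149, adjusted p = 0.022). Cebpe, needed for secondary granules, was listed at 51, 80.8 and 86.8 FPKM in Ctrl and at 125, 121 and 126 FPKM in IR (log2 fold change 0.79, SE 0.194, adjusted p = 0.0177). Each IR library exceeded each Ctrl library for these 3 genes, but the distance was small for Cebpa and Cebpe once Ctrl replicate 1 was left out, at 0.41 (adjusted p = 0.00267) and 0.56 (adjusted p = 0.000164). Gfi1, a repressor of monocytic genes, was listed at 29.7, 30.3 and 32.8 FPKM in Ctrl and at 54.6, 53.5 and 53.4 FPKM in IR (log2 fold change 0.78, SE 0.0612, adjusted p = 0.000216). Stat3, which acts below the G-CSF receptor, rose as well (log2 fold change 0.82, SE 0.0898, adjusted p = 0.000782), and so did Cebpb (log2 fold change 1.39, SE 0.274, adjusted p = 0.00789) and Cebpd (log2 fold change 1.07, SE 0.155, adjusted p = 0.00242), a pair of factors of stress granulopoiesis and activated myeloid cells.

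Irf8, which directs progenitors towards monocytes and dendritic cells, was listed at 22.4, 24.8 and 28 FPKM in Ctrl and at 7.69, 7.65 and 7.34 FPKM in IR (log2 fold change -1.6, SE 0.0893, adjusted p = 6.11e-05). Zeb2, a factor of the same branch, was listed at 7.13, 5.87 and 6.39 FPKM in Ctrl and at 2.32, 2.48 and 2.33 FPKM in IR (log2 fold change -1.14, SE 0.0848, adjusted p = 0.000175). Nr4a1, an orphan nuclear receptor of patrolling monocytes that is also an immediate early gene, was listed at 36.4, 37.3 and 39.5 FPKM in Ctrl and at 8.24, 7.22 and 8.12 FPKM in IR (log2 fold change -2.13, SE 0.072, adjusted p = 1.21e-05). For each of these genes, all IR values lay below all Ctrl values. Klf4 and Egr1, which act in monocyte differentiation, fell by 1.08 and 1.1 on the log2 scale (adjusted p = 0.000215 and 0.000175).

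Among the lymphoid factors, 5 rose and 7 fell of 19 tested members. Pou2af1 (chromosome 9, 51213708 to 51240080, plus strand), a B cell coactivator of octamer factors, was listed at 8.74, 7.15 and 7.12 FPKM in Ctrl and at 43.4, 40.9 and 41.7 FPKM in IR (log2 fold change 2.32, SE 0.0879, adjusted p = 1.81e-05). Xbp1, which expands the secretory apparatus of plasma cells, was listed at 69.1, 83.6 and 78.6 FPKM in Ctrl and at 201, 201 and 199 FPKM in IR (log2 fold change 1.37, SE 0.0826, adjusted p = 7.77e-05). Both were higher in each IR library than in any Ctrl library, as were Irf4 (log2 fold change 0.80, SE 0.0588, adjusted p = 0.000165) and Prdm1 (log2 fold change 0.68, SE 0.0996, adjusted p = 0.00251), factors of plasma cell differentiation. Other members of the list were lower: Tcf3, which encodes E2A, fell from a mean of 37.1 FPKM in Ctrl to 22.4 in IR (log2 fold change -0.70, SE 0.0677, adjusted p = 0.000486), and Mef2c (log2 fold change -0.68, SE 0.129, adjusted p = 0.00668) and Satb1 (log2 fold change -0.69, SE 0.08, adjusted p = 0.00101) fell too. Ikzf1, which encodes Ikaros, was listed at 69.7, 63 and 60.3 FPKM in Ctrl and at 57.9, 59.8 and 58.8 FPKM in IR and did not pass the test (log2 fold change -0.12, SE 0.0707, adjusted p = 0.202), nor did Tcf7 (log2 fold change 0.14, SE 0.17, adjusted p = 0.549) or Notch1 (log2 fold change 0.30, SE 0.104, adjusted p = 0.0553), both T lineage regulators, of which Notch1 rose without Ctrl replicate 1 (log2 fold change 0.36, adjusted p = 0.0199). Ebf1 and Pax5, the factors that fix B cell identity, were below the filter, with no library above 0.39 FPKM for Ebf1 or 0.73 FPKM for Pax5.

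**Figure D3:**
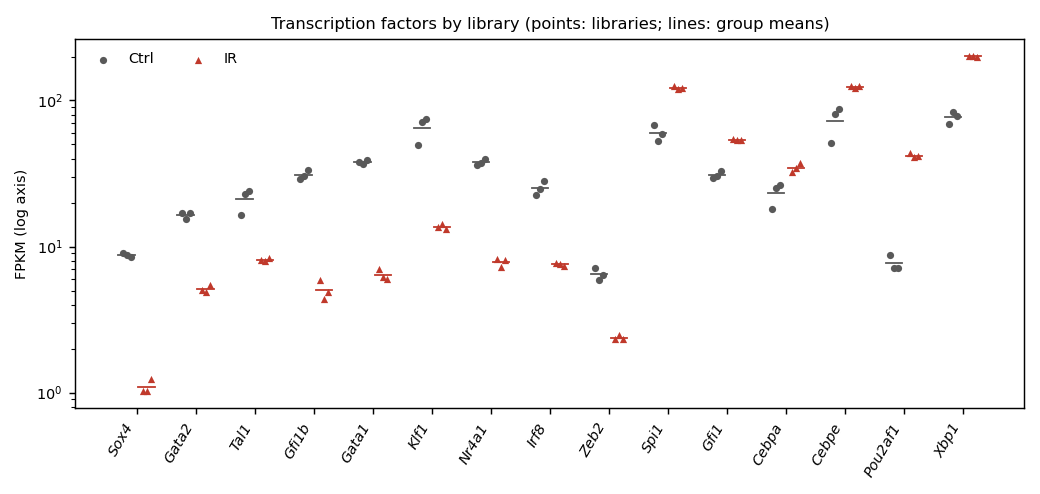
FPKM (log axis) of 15 transcription factors in each of the 3 Ctrl (grey circles) and 3 IR (red triangles) libraries, with group means as lines. Sox4 to Zeb2 are lower in all IR libraries, for example Gata1 at 6.0 to 7.04 against 36.8 to 38.8 FPKM in Ctrl, and Spi1 to Xbp1 are higher, for example Pou2af1 at 40.9 to 43.4 against 7.12 to 8.74 FPKM.

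Genes for chromatin and DNA methylation moved little. Of 46 tested, 3 rose and 10 fell, and Hmgb3 alone was called. Hmgb3, a chromatin protein of HSCs and early progenitors, was listed at 102, 83.8 and 77.4 FPKM in Ctrl and at 34.8, 32.9 and 33.1 FPKM in IR (log2 fold change -1.35, SE 0.108, adjusted p = 0.000232). Ezh2, the methyltransferase of Polycomb complex PRC2, was listed at 30.8, 26.7 and 23.9 FPKM in Ctrl and at 17.9, 17.3 and 17.9 FPKM in IR (log2 fold change -0.58, SE 0.0956, adjusted p = 0.00392). Tet2, a DNA demethylase often mutated in clonal hematopoiesis, was listed at 3.25, 2.45 and 2.95 FPKM in Ctrl and at 4.2, 4.2 and 4.05 FPKM in IR (log2 fold change 0.41, SE 0.0949, adjusted p = 0.0141). Hmgb3 and Ezh2 were lower and Tet2 higher in each IR library, whereas the Ctrl and IR values of Dnmt3a overlapped, at 4.31 ± 0.843 in Ctrl and 3.66 ± 0.0551 FPKM in IR (log2 fold change -0.18, SE 0.119, adjusted p = 0.277). Without Ctrl replicate 1 the list had 11 rises and 13 falls, still with 1 called gene, against a background that also grew.

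Immediate early genes, which respond within minutes to stimulation and to tissue dissociation alike, fell in 16 of 20 cases and rose in none, with log2 fold changes of -2.13 to 0.10. Atf3, a stress-response factor, was listed at 15.3, 18.9 and 19.4 FPKM in Ctrl and at 5.26, 5.85 and 5.8 FPKM in IR (log2 fold change -1.5, SE 0.102, adjusted p = 0.000126). Ier3, which modulates survival signalling, was listed at 52.2, 48.7 and 50.1 FPKM in Ctrl and at 18.8, 20.3 and 19.6 FPKM in IR (log2 fold change -1.32, SE 0.0612, adjusted p = 3.25e-05). Values of the groups did not overlap for either gene. Fos (log2 fold change -0.73, SE 0.105, adjusted p = 0.00227) and Jun (log2 fold change -0.38, SE 0.105, adjusted p = 0.0286), the partners in AP-1, fell less, and Myc, which drives growth, fell from a mean of 74 FPKM in Ctrl to 43.3 in IR (log2 fold change -0.76, SE 0.0951, adjusted p = 0.00138). Junb, Jund, Klf2 and Ier5 did not pass the test with 6 libraries, of which Jund (log2 fold change -0.36, adjusted p = 0.00288) and Klf2 (log2 fold change -0.32, adjusted p = 0.0014) fell without Ctrl replicate 1.

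Cytokine receptors changed in both directions in equal number, with 14 of 42 tested members rising and 14 falling and a median log2 fold change of 0.04. The falls were led by receptors of stem, lymphoid and erythroid progenitors. Kit was listed at 25.4, 21.3 and 23.7 FPKM in Ctrl and at 6.92, 7.0 and 6.7 FPKM in IR (log2 fold change -1.63, SE 0.0788, adjusted p = 3.78e-05). Flt3, the receptor of multipotent and dendritic progenitors that the gate excludes, was listed at 12.1, 9.13 and 10.4 FPKM in Ctrl and at 1.07, 1.22 and 0.96 FPKM in IR (log2 fold change -2.46, SE 0.112, adjusted p = 3.13e-05). Epor, the erythropoietin receptor, was listed at 20.7, 19 and 23 FPKM in Ctrl and at 3.59, 4.12 and 3.61 FPKM in IR (log2 fold change -2.19, SE 0.0909, adjusted p = 2.53e-05). The IR values of these 3 receptors lay far below the Ctrl range. Csf1r, the macrophage colony-stimulating factor receptor, was listed at 17.1, 15.9 and 17.9 FPKM in Ctrl and at 7.49, 7.75 and 8.4 FPKM in IR (log2 fold change -1.02, SE 0.0739, adjusted p = 0.000161). Il5ra (log2 fold change -1.3, SE 0.167, adjusted p = 0.00152) and Il1rl1 (log2 fold change -1.26, SE 0.0809, adjusted p = 0.000101), receptors of eosinophil and of mast cell and basophil progenitors, also fell.

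The rises were led by Il1r2, the decoy receptor that captures interleukin-1. Il1r2 (chromosome 1, 40074079 to 40125231, plus strand) was listed at 2.53, 2.74 and 3.5 FPKM in Ctrl and at 43.6, 41.5 and 43.3 FPKM in IR (log2 fold change 3.49, SE 0.101, adjusted p = 7.11e-06). Il4ra, the chain shared by the interleukin-4 and interleukin-13 receptors, was listed at 8.49, 9.31 and 9.79 FPKM in Ctrl and at 34.3, 34.4 and 33.9 FPKM in IR (log2 fold change 1.79, SE 0.0675, adjusted p = 1.76e-05). Csf2rb, the signalling chain shared by the GM-CSF, interleukin-3 and interleukin-5 receptors, was listed at 23.4, 22 and 26.5 FPKM in Ctrl and at 75.1, 75.4 and 75.4 FPKM in IR (log2 fold change 1.62, SE 0.0787, adjusted p = 3.8e-05). The groups were well separated, although reads of Csf2rb and of its close copy Csf2rb2 (log2 fold change 0.75, SE 0.0661, adjusted p = 0.000338) may not be told apart. Csf3r, the G-CSF receptor, was listed at 59.6, 45.2 and 53 FPKM in Ctrl and at 100.1, 95.5 and 95.1 FPKM in IR (log2 fold change 0.88, SE 0.105, adjusted p = 0.00114). Tnfrsf1a, a receptor of tumour necrosis factor, rose (log2 fold change 0.56, SE 0.0659, adjusted p = 0.00107), and so did Ifngr2 (log2 fold change 0.44, SE 0.123, adjusted p = 0.0288), while Ifnar1 and Ifnar2, the chains of the type I interferon receptor, had log2 fold changes of 0.06 and -0.11 and did not pass. Il7r, which the earliest lymphoid progenitors need, was listed at 0.66, 1.51 and 1.29 FPKM in Ctrl and at 0.87, 1.33 and 1.25 FPKM in IR, with overlapping groups (log2 fold change 0.01, SE 0.181, adjusted p = 0.961).

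Receptors for homing and adhesion showed a similar division. Of 31 tested, 10 rose and 13 fell. Cxcr4, the receptor that holds HSCs in the marrow by way of CXCL12, was listed at 110.1, 93.8 and 99.7 FPKM in Ctrl and at 52.8, 48.6 and 51.2 FPKM in IR (log2 fold change -0.98, SE 0.0782, adjusted p = 0.000232). Itga2b, the integrin chain CD41 of megakaryocytes and some HSCs, was listed at 17.3, 16.7 and 17.4 FPKM in Ctrl and at 5.2, 5.25 and 5.5 FPKM in IR (log2 fold change -1.52, SE 0.0586, adjusted p = 1.9e-05). Vcam1, an adhesion molecule, was listed at 20.3, 19.4 and 20 FPKM in Ctrl and at 7.11, 7.12 and 7.39 FPKM in IR (log2 fold change -1.35, SE 0.0568, adjusted p = 2.66e-05). Each was lower in every IR library than in any Ctrl library. Cxcr2, the chemokine receptor that releases neutrophils from the marrow, was listed at 4.99, 5.48 and 4.33 FPKM in Ctrl and at 17.4, 17.8 and 18.9 FPKM in IR (log2 fold change 1.68, SE 0.0884, adjusted p = 4.96e-05). C5ar1, the receptor for complement fragment C5a, was listed at 3.24, 3.37 and 3.42 FPKM in Ctrl and at 16.5, 13.9 and 15.1 FPKM in IR (log2 fold change 1.89, SE 0.0779, adjusted p = 2.49e-05). Both were higher in all IR libraries, with no overlap. The leukocyte integrin chains Itgam (log2 fold change 0.67, SE 0.0648, adjusted p = 0.000493) and Itgb2 (log2 fold change 0.77, SE 0.0673, adjusted p = 0.000317) rose, whereas Itgax, another chain that pairs with Itgb2, fell (log2 fold change -1.04, SE 0.115, adjusted p = 0.000841). Itgam encodes CD11b, a lineage marker that the gate excludes. Itga4, a chain of VLA-4, did not pass (log2 fold change -0.21, SE 0.102, adjusted p = 0.143).

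Sensors of microbes and antibodies rose more often than they fell, in 18 of 39 tested members against 5. Tlr4, the receptor of bacterial lipopolysaccharide, was listed at 3.18, 2.99 and 2.64 FPKM in Ctrl and at 6.29, 6.06 and 5.68 FPKM in IR (log2 fold change 0.83, SE 0.082, adjusted p = 0.000516). Tlr2, the receptor of bacterial lipoproteins, was listed at 4.25, 5.97 and 5.65 FPKM in Ctrl and at 9.81, 8.33 and 8.08 FPKM in IR (log2 fold change 0.64, SE 0.131, adjusted p = 0.00912). Clec5a, a C-type lectin of myeloid cells, was listed at 27.1, 22.9 and 19 FPKM in Ctrl and at 63.4, 64 and 65.1 FPKM in IR (log2 fold change 1.46, SE 0.123, adjusted p = 0.000285). No IR library of these genes was as low as any Ctrl library. Myd88, the adaptor of Toll-like and interleukin-1 receptors, rose from a mean of 23.6 FPKM in Ctrl to 53.4 in IR (log2 fold change 1.14, SE 0.0653, adjusted p = 6.52e-05). Fcgr4, an activating receptor for immunoglobulin G, was listed at 1.12, 3.9 and 2.74 FPKM in Ctrl and at 10.1, 10.1 and 11.2 FPKM in IR (log2 fold change 1.76, SE 0.29, adjusted p = 0.00398). Against this, Clec7a, the fungal receptor Dectin-1, was listed at 14.8, 13.8 and 12.9 FPKM in Ctrl and at 3.2, 2.9 and 2.7 FPKM in IR (log2 fold change -1.91, SE 0.0819, adjusted p = 2.66e-05), and Nlrp3, an inflammasome sensor, fell by 1.2 on the log2 scale (adjusted p = 0.000313). Cd14, the co-receptor of TLR4, did not pass with 6 libraries, at 55.6 ± 6.88 in Ctrl and 50.7 ± 1.2 FPKM in IR (log2 fold change -0.12, SE 0.0987, adjusted p = 0.363), but fell without Ctrl replicate 1 (log2 fold change -0.23, adjusted p = 0.00423).

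**Figure D4:**
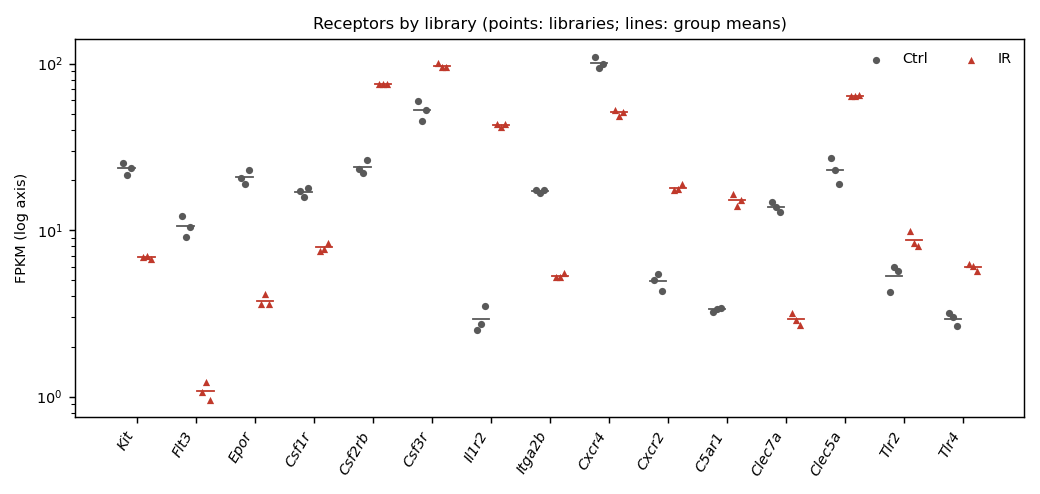
FPKM (log axis) of 15 receptors in each Ctrl (grey circles) and IR (red triangles) library, with group means as lines. Kit, Flt3, Epor, Csf1r, Itga2b, Cxcr4 and Clec7a are lower and the other 8 are higher in every IR library, with Il1r2 at 41.5 to 43.6 against 2.53 to 3.5 FPKM.

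Components of IGF1 receptor, PI3K, AKT and mTOR signalling, which the study followed in HSCs, gave 8 rises and 9 falls among 36 tested genes. Of all tested genes 17.5% rose and 25.6% fell. Without Ctrl replicate 1 the list gave 15 rises and 11 falls, against 25.1% and 34.8% of all tested genes. Igf1r was listed at 7.25, 5.69 and 6.64 FPKM in Ctrl and at 7.83, 8.16 and 8.11 FPKM in IR (log2 fold change 0.27, SE 0.0906, adjusted p = 0.0534). Each IR library was above each Ctrl library, the adjusted p missed the threshold, and without Ctrl replicate 1 it passed, at a log2 fold change of 0.34 (adjusted p = 0.0078). Insr, the insulin receptor, rose (log2 fold change 0.27, SE 0.0652, adjusted p = 0.0177), and so did its docking protein Irs2 (log2 fold change 0.60, SE 0.0886, adjusted p = 0.00258). Pik3r5, the regulatory subunit of PI3K gamma, was listed at 7.35, 5.98 and 6.64 FPKM in Ctrl and at 17.2, 18.5 and 18.3 FPKM in IR (log2 fold change 1.32, SE 0.0834, adjusted p = 9.56e-05). Ddit4, a stress-induced inhibitor of mTORC1, was listed at 25.8, 19.4 and 20.7 FPKM in Ctrl and at 9.02, 9.49 and 8.64 FPKM in IR (log2 fold change -1.18, SE 0.11, adjusted p = 0.000421). Sesn1, a p53 target that restrains mTORC1, was listed at 7.57, 8.01 and 7.93 FPKM in Ctrl and at 3.22, 2.84 and 3.46 FPKM in IR (log2 fold change -1.08, SE 0.0794, adjusted p = 0.000166). Pik3r5 was higher and Ddit4 and Sesn1 were lower in each IR library. Akt1 rose (log2 fold change 0.58, SE 0.0644, adjusted p = 0.000816), while Mtor itself (log2 fold change 0.13, SE 0.164, adjusted p = 0.564) did not pass with 6 libraries but rose without Ctrl replicate 1 (log2 fold change 0.30, adjusted p = 0.0444). The forkhead factors Foxo1, Foxo3 and Foxo4, which AKT keeps inactive and which guard HSC quiescence, fell by 0.52, 0.56 and 0.43 on the log2 scale (adjusted p = 0.015, 0.00958 and 0.00548).

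Enzymes of glycolysis and the pentose phosphate pathway were higher after IR along most of the route. Of 29 tested genes 19 rose and 4 fell, and the median log2 fold change was 0.54. Slc2a1, the glucose transporter GLUT1, was listed at 5.6, 5.02 and 4.41 FPKM in Ctrl and at 12.2, 12.4 and 12.6 FPKM in IR (log2 fold change 1.16, SE 0.0864, adjusted p = 0.000175). G6pdx, which opens the pentose phosphate branch and supplies NADPH, was listed at 95, 82.8 and 94.2 FPKM in Ctrl and at 242, 237 and 235 FPKM in IR (log2 fold change 1.39, SE 0.0742, adjusted p = 5.22e-05). Both were higher in each IR library. The 9 genes measured from Gpi1 to Ldha by step (Gpi1, Aldoa, Tpi1, Gapdh, Pgk1, Pgam1, Eno1, Pkm and Ldha) all rose, by 0.49 to 1.0 on the log2 scale, of which Gapdh is uncertain as it has many near-identical pseudogenes. Slc16a3, the lactate exporter MCT4, rose beyond 1 (log2 fold change 1.15, SE 0.12, adjusted p = 0.000664). At the phosphofructokinase step the subunits parted. Pfkm, the muscle-type subunit that red cells also use, was listed at 26.3, 23.3 and 24.8 FPKM in Ctrl and at 6.8, 6.83 and 6.56 FPKM in IR (log2 fold change -1.74, SE 0.0668, adjusted p = 1.9e-05), while Pfkl (log2 fold change 0.34, SE 0.081, adjusted p = 0.0161) and Pfkp (log2 fold change 0.89, SE 0.0632, adjusted p = 0.000146) rose. Hexokinase 2, encoded by Hk2, had overlapping groups and did not pass with 6 libraries (log2 fold change 0.22, SE 0.0984, adjusted p = 0.113), but rose without Ctrl replicate 1 (log2 fold change 0.33, adjusted p = 0.00186).

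Mitochondrial genes moved in both directions. Of 29 genes of pyruvate entry and the TCA cycle 8 rose and 4 fell, none was called, and the list median turned from 0.13 to -0.05 without Ctrl replicate 1, with 11 rises and 8 falls there. Got2, the mitochondrial aspartate aminotransferase, was listed at 42.1, 41.9 and 45.6 FPKM in Ctrl and at 77.3, 77.4 and 75.5 FPKM in IR (log2 fold change 0.82, SE 0.0603, adjusted p = 0.000174). Cs, citrate synthase, was listed at 56.9, 53 and 55 FPKM in Ctrl and at 60.1, 61.2 and 59.4 FPKM in IR (log2 fold change 0.13, SE 0.0567, adjusted p = 0.11). Got2 rose, whereas the difference in Cs passed without Ctrl replicate 1 (log2 fold change 0.16, adjusted p = 0.0169). The 13 genes encoded in mitochondrial DNA had 7 falls and 0 rises, and 12 falls without Ctrl replicate 1. mt-Co3, a subunit of cytochrome c oxidase, was listed at 2583, 3087 and 2548 FPKM in Ctrl and at 1516, 1550.5 and 1542 FPKM in IR (log2 fold change -0.83, SE 0.105, adjusted p = 0.00143). Its IR values lay close together and below those of all Ctrl libraries. Genes for import and biogenesis of mitochondria gave 3 rises and 3 falls of 31, and 8 rises and 5 falls without Ctrl replicate 1. Tomm40, the pore of the outer membrane translocase, was listed at 14.6, 19.1 and 19.3 FPKM in Ctrl and at 28.9, 29.9 and 29.8 FPKM in IR (log2 fold change 0.72, SE 0.111, adjusted p = 0.00307). Tfam, which packages mitochondrial DNA, fell (log2 fold change -0.36, SE 0.103, adjusted p = 0.0301).

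Lipid genes changed widely in single members. Of 41 tested 15 rose and 7 fell. Lipg, an extracellular lipase, was listed at 3.06, 3.18 and 3.79 FPKM in Ctrl and at 50.6, 49.6 and 48.8 FPKM in IR (log2 fold change 3.55, SE 0.0793, adjusted p = 5.03e-06). Dgat2, which makes triglyceride for lipid droplets, was listed at 11.3, 11.4 and 10.5 FPKM in Ctrl and at 62.8, 61.2 and 62.5 FPKM in IR (log2 fold change 2.39, SE 0.0582, adjusted p = 5.17e-06). Plin2, a lipid droplet coat protein, was listed at 18.1, 23 and 22.9 FPKM in Ctrl and at 45.7, 44.8 and 46.2 FPKM in IR (log2 fold change 1.07, SE 0.0997, adjusted p = 0.000421). All 3 were higher in every IR library, and Cpt1a, which admits fatty acids to mitochondria for oxidation, rose too, at 15.3 ± 1.11 in Ctrl and 26 ± 0.613 FPKM in IR (log2 fold change 0.73, SE 0.07, adjusted p = 0.000481). Desaturases fell instead. Fads2, which makes polyunsaturated fatty acids, was listed at 33.1, 25.5 and 27.4 FPKM in Ctrl and at 6.2, 5.26 and 5.68 FPKM in IR (log2 fold change -2.14, SE 0.111, adjusted p = 4.88e-05). Scd1, which makes monounsaturated ones, was listed at 5.59, 3.65 and 4.68 FPKM in Ctrl and at 0.75, 0.74 and 0.86 FPKM in IR (log2 fold change -1.65, SE 0.137, adjusted p = 0.000268). Neither desaturase gene had overlapping groups. Cholesterol genes moved less, with 2 of 25 tested members rising and 6 falling and none called, against 4 rises and 10 falls without Ctrl replicate 1. Mvd of the mevalonate pathway rose (log2 fold change 0.73, SE 0.136, adjusted p = 0.00645).

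Building blocks for proliferation changed modestly. In serine, one-carbon and nucleotide synthesis, 12 rose and 7 fell of 37 tested members, none beyond 1, and leaving out Ctrl replicate 1 gave 14 rises and 12 falls. Rrm2, the regulated subunit of ribonucleotide reductase, was listed at 118, 129 and 124 FPKM in Ctrl and at 193, 193 and 192 FPKM in IR (log2 fold change 0.63, SE 0.0617, adjusted p = 0.000492). Phgdh, the first enzyme of serine synthesis, was listed at 65.1, 90.4 and 88.9 FPKM in Ctrl and at 115, 117 and 116 FPKM in IR (log2 fold change 0.52, SE 0.131, adjusted p = 0.0196). Tyms, thymidylate synthase, was listed at 14.9, 14.5 and 13.4 FPKM in Ctrl and at 11.8, 11.6 and 11.9 FPKM in IR (log2 fold change -0.26, SE 0.0643, adjusted p = 0.0196). The first pair was higher and Tyms lower in all IR libraries. In amino acid transport and polyamine synthesis, 6 rose and 5 fell of 19 tested members. Bcat1, which starts branched-chain amino acid breakdown, was listed at 0.81, 2.02 and 2.1 FPKM in Ctrl and at 7.55, 7.69 and 7.1 FPKM in IR (log2 fold change 1.72, SE 0.211, adjusted p = 0.00127). Slc7a5, the leucine transporter chain, rose (log2 fold change 0.40, SE 0.0714, adjusted p = 0.00519), and Odc1, the first enzyme of polyamine synthesis, fell (log2 fold change -0.26, SE 0.0566, adjusted p = 0.0122).

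Iron and heme genes fell with the erythroid programme. Of 23 tested, 16 fell, 11 of them called, and 3 rose. Alas2, the erythroid enzyme that starts heme synthesis, was listed at 25.4, 27 and 28.1 FPKM in Ctrl and at 3.55, 3.02 and 3.32 FPKM in IR (log2 fold change -2.7, SE 0.0753, adjusted p = 6.28e-06). Alad, the next enzyme, was listed at 65.3, 74.3 and 72.7 FPKM in Ctrl and at 16.3, 14.6 and 14.8 FPKM in IR (log2 fold change -2.15, SE 0.0773, adjusted p = 1.56e-05). All 8 enzymes of the pathway fell, by 1.08 to 2.7 on the log2 scale, whereas Alas1, the form used outside red cells, rose slightly (log2 fold change 0.20, SE 0.0558, adjusted p = 0.0279). Tfrc, the transferrin receptor, was listed at 115, 113 and 96.2 FPKM in Ctrl and at 51.2, 54 and 52.7 FPKM in IR (log2 fold change -1.02, SE 0.0842, adjusted p = 0.00026). Steap3, which reduces the imported iron, was listed at 18.5, 17.7 and 19.6 FPKM in Ctrl and at 5.83, 5.69 and 6.22 FPKM in IR (log2 fold change -1.5, SE 0.0678, adjusted p = 3.13e-05). Neither gene had an IR library within the Ctrl range. Ferritin chains moved apart, Fth1 falling (log2 fold change -0.48, SE 0.0875, adjusted p = 0.00585) and Ftl1 rising (log2 fold change 0.49, SE 0.125, adjusted p = 0.0201), and Hmox1, which degrades heme, rose from a mean of 9.38 FPKM in Ctrl to 18 in IR (log2 fold change 0.87, SE 0.126, adjusted p = 0.00243).

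**Figure D5:**
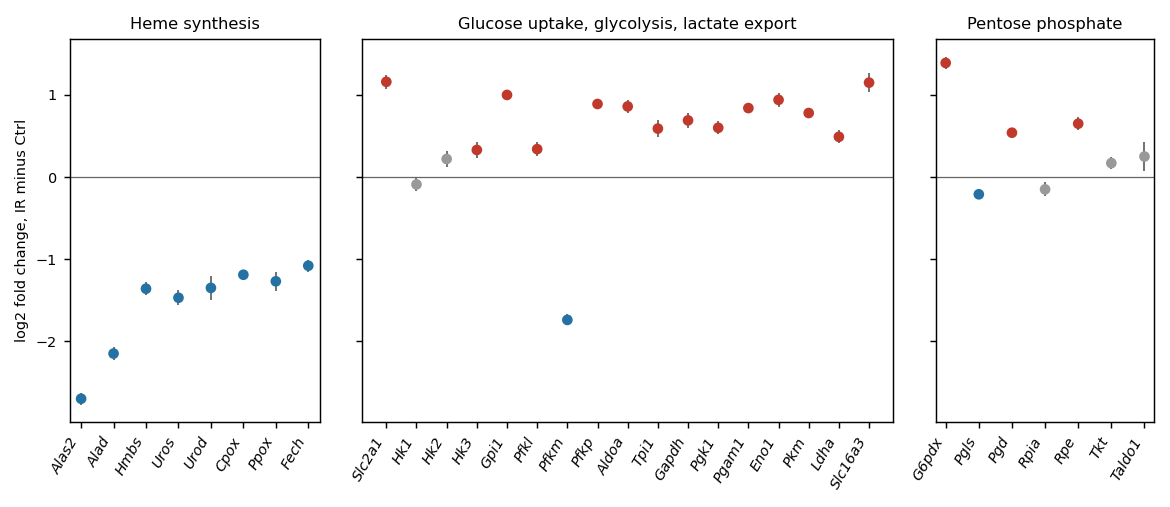
Log2 fold change (points) with its SE (bars), IR minus Ctrl, for enzymes in pathway order: heme synthesis (left), glucose uptake, glycolysis and lactate export (middle) and the pentose phosphate pathway (right). Red and blue mark genes that rose or fell at an adjusted p under 0.05 and grey those that did not: all 8 heme enzymes lie between -2.7 and -1.08, while the glycolysis genes from Gpi1 to Ldha lie above 0 except Pfkm at -1.74.

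For redox and lipid peroxide control, 4 rose and 11 fell of 30 tested members. Alox15, a lipoxygenase that peroxidizes membrane lipids and that eosinophils express strongly, was listed at 116, 103 and 113 FPKM in Ctrl and at 7.45, 7.55 and 7.51 FPKM in IR (log2 fold change -3.71, SE 0.0664, adjusted p = 2.43e-06). Prdx2, the peroxiredoxin of red cells, was listed at 87.8, 140.2 and 131 FPKM in Ctrl and at 39.9, 40.7 and 39.8 FPKM in IR (log2 fold change -1.53, SE 0.173, adjusted p = 0.000922). Txnrd1, cytosolic thioredoxin reductase, was listed at 12.6, 15.8 and 15.8 FPKM in Ctrl and at 35.6, 35.9 and 35.1 FPKM in IR (log2 fold change 1.22, SE 0.096, adjusted p = 0.000219). The first pair stayed below and Txnrd1 above the Ctrl range in all IR libraries. Gpx4, which detoxifies lipid peroxides and blocks ferroptosis, fell from a mean of 88.4 FPKM in Ctrl to 63.5 in IR (log2 fold change -0.45, SE 0.144, adjusted p = 0.0446). Gclc, which makes the glutathione precursor, fell (log2 fold change -0.97, SE 0.0902, adjusted p = 0.000415), Gsr, which recycles glutathione, rose (log2 fold change 0.74, SE 0.0631, adjusted p = 0.000292), and Acsl4, which loads polyunsaturated lipids into membranes, did not pass (log2 fold change -0.14, SE 0.0708, adjusted p = 0.162). Gpx1 (log2 fold change 0.19, SE 0.113, adjusted p = 0.231) did not pass and Cat fell slightly (log2 fold change -0.23, SE 0.0665, adjusted p = 0.0331).

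Cell cycle genes moved in both directions. Of 36 tested 6 rose and 9 fell, against 17.5% and 25.6% of all tested genes, none was called, and Mki67 (log2 fold change -0.06, SE 0.187, adjusted p = 0.832) and Top2a (log2 fold change -0.14, SE 0.0962, adjusted p = 0.272), markers of cycling cells, did not pass, although Mki67 turned to a small rise without Ctrl replicate 1 (log2 fold change 0.17, adjusted p = 0.0428). Cdkn2d, an inhibitor of CDK4 and CDK6, was listed at 12.4, 20 and 18.9 FPKM in Ctrl and at 29.9, 31.1 and 31.5 FPKM in IR (log2 fold change 0.84, SE 0.169, adjusted p = 0.00848). Cdk6, which brings HSCs out of quiescence, was listed at 36.8, 28 and 32 FPKM in Ctrl and at 29.2, 30.4 and 29.3 FPKM in IR (log2 fold change -0.11, SE 0.102, adjusted p = 0.428). Cdkn2d was higher in all IR libraries, most of all against Ctrl replicate 1, and Cdk6 overlapped. The mitotic kinases Plk1 (log2 fold change 0.69, SE 0.0641, adjusted p = 0.000426) and Aurka (log2 fold change 0.58, SE 0.0593, adjusted p = 0.000614) rose, as did the mitotic cyclin gene Ccnb1 (log2 fold change 0.37, SE 0.0543, adjusted p = 0.0025), and the replication factors Pcna (log2 fold change -0.61, SE 0.109, adjusted p = 0.00543) and Mcm6 (log2 fold change -0.49, SE 0.0846, adjusted p = 0.00478) fell. Cdkn1b, which encodes the quiescence inhibitor p27, fell (log2 fold change -0.65, SE 0.151, adjusted p = 0.0147), and Cdkn1c was below the filter.

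Targets of p53 and BCL2 family genes were divided, with 8 of 24 tested members rising and 7 falling. Cdkn1a, which encodes p21, was listed at 13.1, 11.7 and 12 FPKM in Ctrl and at 11.4, 11.3 and 10.9 FPKM in IR (log2 fold change -0.12, SE 0.0661, adjusted p = 0.202). Mdm2, the ligase that degrades p53, was listed at 14.3, 14.5 and 14.7 FPKM in Ctrl and at 17.9, 19.1 and 17.9 FPKM in IR (log2 fold change 0.32, SE 0.0574, adjusted p = 0.00586). Bcl2, which protects from apoptosis, was listed at 3.32, 3.63 and 3.9 FPKM in Ctrl and at 2.11, 2.15 and 2.2 FPKM in IR (log2 fold change -0.55, SE 0.0786, adjusted p = 0.00232). Mdm2 was higher and Bcl2 lower in every IR library, and Cdkn1a did not pass. Of the genes that promote apoptosis, Bak1 (log2 fold change 0.76, SE 0.067, adjusted p = 0.000328) and Bax (log2 fold change 0.44, SE 0.136, adjusted p = 0.0394) rose, whereas Bbc3, which encodes PUMA, did not pass (log2 fold change 0.25, SE 0.151, adjusted p = 0.227) and Bcl2l11, which encodes the activator BIM, fell (log2 fold change -0.62, SE 0.108, adjusted p = 0.00504). Other p53 targets, Ccng1 (log2 fold change 0.75, SE 0.0696, adjusted p = 0.000404) and Phlda3 (log2 fold change 0.80, SE 0.21, adjusted p = 0.0228), rose, while Perp (log2 fold change -1.38, SE 0.147, adjusted p = 0.000711), Sesn1, given above, Btg2 (log2 fold change -0.85, SE 0.0769, adjusted p = 0.000368) and Plk2 (log2 fold change -0.77, SE 0.158, adjusted p = 0.0093) fell.

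Interferon-stimulated genes fell in 33 of 45 tested members, 12 of them called, and rose in 2, with a median log2 fold change of -0.55. Rtp4, a chaperone induced by type I interferon, was listed at 5.91, 5.85 and 5.0 FPKM in Ctrl and at 0.95, 1.11 and 1.18 FPKM in IR (log2 fold change -1.66, SE 0.0926, adjusted p = 6.11e-05). Isg15, a ubiquitin-like modifier, was listed at 13.6, 10.3 and 10.3 FPKM in Ctrl and at 2.26, 5.0 and 4.87 FPKM in IR (log2 fold change -1.34, SE 0.255, adjusted p = 0.0069). Irf7, the factor that amplifies type I interferon, was listed at 9.64, 9.43 and 8.78 FPKM in Ctrl and at 2.17, 3.58 and 3.65 FPKM in IR (log2 fold change -1.34, SE 0.157, adjusted p = 0.00107). In these genes all IR libraries were below all Ctrl libraries, and the same was seen for Tgtp2 (log2 fold change -1.86, SE 0.182, adjusted p = 0.000508) and Tgtp1 (log2 fold change -1.75, SE 0.133, adjusted p = 0.00019), T cell GTPases so alike that their reads may be shared. Stat2, which transmits the signal, fell by 0.42 (adjusted p = 0.0269). The exceptions were Ifitm1 (log2 fold change 1.28, SE 0.163, adjusted p = 0.00146) and Ifitm3 (log2 fold change 1.3, SE 0.222, adjusted p = 0.00463), membrane proteins that restrict virus entry.

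The promoters of these genes were read from RefSeq (GRCm38.p6), 250 bases before to 50 after the listed gene start, taking the first listed start of a gene. Of the 45 tested interferon-stimulated genes 34 had a window, and 20 (58.8%) held the interferon response motif GAAANNGAAA on either strand, against 3.36% of the 8508 windows of all tested genes. A match is a description of the letters and not a measured binding site. Shown are the 120 bases before the start of the 3 genes with the largest change among those with a match there, with the motif in capitals, for Tgtp2 (chr11:49064213-49064332, minus strand), Tgtp1 (chr11:48992247-48992366, minus strand) and Isg15 (chr4:156200819-156200938, minus strand). In Isg15 the capitals cover 3 overlapping matches, and the windows of Tgtp2 and Tgtp1 show how alike the copies are.
Tgtp2: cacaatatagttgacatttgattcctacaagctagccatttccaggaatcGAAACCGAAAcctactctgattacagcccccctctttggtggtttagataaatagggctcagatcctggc
Tgtp1: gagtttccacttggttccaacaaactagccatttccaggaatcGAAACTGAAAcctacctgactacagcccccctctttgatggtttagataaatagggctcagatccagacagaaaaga
Isg15: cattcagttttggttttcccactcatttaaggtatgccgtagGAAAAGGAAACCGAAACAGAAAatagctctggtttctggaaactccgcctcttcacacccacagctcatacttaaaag

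In the list of HSC-enriched genes, 13 of the 19 tested fell, 9 of them called (including Cd34 and Cd48, which HSCs of the strictest definitions lack), and 3 rose. Pdzk1ip1, which marks quiescent HSCs, was listed at 4.83, 6.89 and 6.54 FPKM in Ctrl and at 0.43, 0.38 and 0.63 FPKM in IR (log2 fold change -2.25, SE 0.14, adjusted p = 8.88e-05). Adgrg1, the adhesion receptor GPR56 of HSCs, was listed at 31.9, 22.8 and 25.9 FPKM in Ctrl and at 5.38, 5.19 and 4.83 FPKM in IR (log2 fold change -2.17, SE 0.124, adjusted p = 6.51e-05). Cd27, a receptor of progenitors, was listed at 8.08, 10.2 and 10.1 FPKM in Ctrl and at 1.48, 1.38 and 1.18 FPKM in IR (log2 fold change -2.15, SE 0.108, adjusted p = 4.29e-05). Their IR libraries were all far below the Ctrl range. Together with Ly6a, the rises were in Prom1 (log2 fold change 0.77, SE 0.0531, adjusted p = 0.000135), a membrane protein of progenitors, and in Ltb (log2 fold change 0.98, SE 0.0883, adjusted p = 0.000369), a cytokine of lymphoid cells.

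Erythroid genes fell throughout. All 23 tested members fell and 22 were called, with a median log2 fold change of -2.53 with 6 libraries and -2.52 without Ctrl replicate 1. Car1, the carbonic anhydrase of erythroid progenitors, was listed at 604, 528 and 503 FPKM in Ctrl and at 37.3, 37.2 and 35.7 FPKM in IR (log2 fold change -3.85, SE 0.0832, adjusted p = 5.03e-06). Aqp1, the water channel of the red cell membrane, was listed at 198, 160.3 and 182 FPKM in Ctrl and at 16, 16.3 and 16.5 FPKM in IR (log2 fold change -3.38, SE 0.0868, adjusted p = 5.17e-06). The IR libraries were close to each other and far below the Ctrl libraries for both genes. Hba-a1 was listed at 894, 1133 and 1136 FPKM in Ctrl and at 175, 174 and 176 FPKM in IR (log2 fold change -2.58, SE 0.109, adjusted p = 2.66e-05). The 4 adult hemoglobin genes fell by 2.58 to 2.72, although reads are probably shared between the copies Hba-a1 and Hba-a2 and between Hbb-bs and Hbb-bt. Bpgm, which makes the oxygen-releasing 2,3-bisphosphoglycerate, was the only tested member short of a call (log2 fold change -0.59, SE 0.0728, adjusted p = 0.00133).

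Of these erythroid genes 16 had a promoter window, and 10 (62.5%) held a GATA motif, AGATAA or TGATAA on either strand, against 10.3% of windows of all tested genes. The KLF-type motif, CCACACCC or CCGCACCC, was in 6.25% of them and in 6.43% of all windows. In the iron and heme list the GATA motif was in 3 of 16 windows. It was also in 44.4% of 9 eosinophil, 33.3% of 12 dendritic and class II and 29.4% of 34 interferon-stimulated windows, so the letters were not limited to erythroid genes. The 120 bases before the start are shown for Rhd (chr4:134864416-134864535, plus strand), Hemgn (chr4:46404184-46404303, minus strand) and Kel (chr6:41704326-41704445, minus strand), the genes with the largest fall among those with a match there, with the GATA motif in capitals. Rhd and Kel encode blood group proteins and Hemgn a nuclear protein of the erythroid lineage, and their log2 fold changes were -2.6, -2.5 and -2.60.
Rhd: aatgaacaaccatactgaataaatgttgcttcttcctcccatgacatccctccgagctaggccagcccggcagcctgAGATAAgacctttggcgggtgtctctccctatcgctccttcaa
Hemgn: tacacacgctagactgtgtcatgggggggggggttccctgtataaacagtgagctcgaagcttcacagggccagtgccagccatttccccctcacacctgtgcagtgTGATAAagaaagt
Kel: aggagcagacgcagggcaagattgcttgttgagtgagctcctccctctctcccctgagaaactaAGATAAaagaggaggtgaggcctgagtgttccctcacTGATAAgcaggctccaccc

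Megakaryocyte and platelet genes fell in 15 of 16 tested cases, 12 of them called. Pf4, the platelet chemokine, was listed at 18.6, 24.7 and 27.1 FPKM in Ctrl and at 4.89, 3.41 and 4.32 FPKM in IR (log2 fold change -2.23, SE 0.166, adjusted p = 0.000175). Ppbp, another platelet chemokine, was listed at 10.1, 15.3 and 14.3 FPKM in Ctrl and at 1.84, 1.7 and 1.71 FPKM in IR (log2 fold change -2.36, SE 0.149, adjusted p = 9.4e-05). Slc14a1, a urea transporter, was listed at 15.6, 16.8 and 17.2 FPKM in Ctrl and at 2.6, 2.78 and 2.73 FPKM in IR (log2 fold change -2.24, SE 0.0673, adjusted p = 7.9e-06). Every IR library was below the lowest Ctrl library for these 3 genes. Selp, which encodes P-selectin, was the exception and did not pass (log2 fold change 0.15, SE 0.159, adjusted p = 0.496). A GATA motif was in 5 of 12 windows and the ETS motif AGGAAG in 8 of 12 (66.7%, against 34% of all windows). The ETS motif was also in 56.2% of 16 late neutrophil and 55.6% of 9 eosinophil windows.

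Eosinophil genes fell furthest, with all 11 tested members falling, 10 of them called, at a median of -3.71. Prg2, the major basic protein of the granule, was listed at 2673, 3822 and 3478 FPKM in Ctrl and at 236, 238 and 246 FPKM in IR (log2 fold change -3.77, SE 0.14, adjusted p = 1.72e-05). Epx, eosinophil peroxidase, was listed at 585, 558 and 603 FPKM in Ctrl and at 53.8, 52.6 and 51.1 FPKM in IR (log2 fold change -3.45, SE 0.0622, adjusted p = 2.43e-06). Ear1 and Ear2, granule ribonucleases, had log2 fold changes of -3.98 and -4.0, uncertain for single genes of this multigene family. Mast cell and basophil genes fell in 9 of 9 tested cases. Mcpt8, a basophil protease, was listed at 172, 201 and 178 FPKM in Ctrl and at 53.8, 52.8 and 53.5 FPKM in IR (log2 fold change -1.76, SE 0.0751, adjusted p = 2.66e-05). Ms4a2, the beta chain of the IgE receptor, was listed at 17.4, 14.8 and 11.3 FPKM in Ctrl and at 1.95, 1.83 and 1.99 FPKM in IR (log2 fold change -2.39, SE 0.149, adjusted p = 8.8e-05). Cpa3, mast cell carboxypeptidase, was listed at 56.6, 64 and 53.8 FPKM in Ctrl and at 19, 17.6 and 19.4 FPKM in IR (log2 fold change -1.59, SE 0.0838, adjusted p = 5.09e-05). The IR libraries were below the Ctrl range in each of these genes, and the mast cell proteases Mcpt4, Tpsb2, Tpsab1 and Cma1 did not pass the filter.

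Of 14 neutrophil genes of primary granules and promyelocytes, 6 rose and 1 fell. Mpo was listed at 3432, 2859 and 3136 FPKM in Ctrl and at 3249, 3156 and 3131 FPKM in IR (log2 fold change 0.02, SE 0.105, adjusted p = 0.894). Elane, neutrophil elastase, was listed at 2069, 2714 and 2665 FPKM in Ctrl and at 2334, 2247 and 2298 FPKM in IR (log2 fold change -0.10, SE 0.129, adjusted p = 0.55). The groups overlapped in both genes, Elane falling without Ctrl replicate 1 (log2 fold change -0.23, adjusted p = 0.00344), and Prtn3, proteinase 3, did not pass either (log2 fold change 0.11, SE 0.148, adjusted p = 0.571). Ctsg, the protease cathepsin G of the same granules, rose (log2 fold change 0.28, SE 0.0834, adjusted p = 0.0355), and so did Ctsc, which activates these proteases (log2 fold change 1.0, SE 0.0654, adjusted p = 0.000106). Hp, haptoglobin, was listed at 233, 277 and 277 FPKM in Ctrl and at 665, 691 and 690 FPKM in IR (log2 fold change 1.38, SE 0.0899, adjusted p = 0.000105). Without Ctrl replicate 1 this list gave 6 rises and 4 falls.

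Of 19 tested genes of secondary granules and later stages, 13 rose, 9 of them called, and 1 fell, against 14 rises and 4 falls without Ctrl replicate 1. Lcn2, the iron-scavenging lipocalin, was listed at 59.9, 85.8 and 80.8 FPKM in Ctrl and at 331, 333 and 330.5 FPKM in IR (log2 fold change 2.14, SE 0.136, adjusted p = 9.66e-05). Ltf, lactoferrin, was listed at 155, 155 and 157 FPKM in Ctrl and at 290.1, 290.4 and 287 FPKM in IR (log2 fold change 0.89, SE 0.0556, adjusted p = 8.88e-05). S100a8, a chain of calprotectin, was listed at 277, 838 and 618 FPKM in Ctrl and at 1567, 1743 and 1793 FPKM in IR (log2 fold change 1.7, SE 0.385, adjusted p = 0.0135). All 3 were higher in every IR library, and S100a8 was lowest in Ctrl replicate 1, without which its rise was 1.24 (adjusted p = 0.000462). S100a9, the other chain, rose by 1.38 (adjusted p = 0.00172), and Mmp8, neutrophil collagenase, by 1.81 (adjusted p = 0.000162). Camp, the cathelicidin gene of the same granules, had overlapping groups and did not pass with 6 libraries (log2 fold change 0.04, SE 0.22, adjusted p = 0.908), nor did Ly6g, the defining surface marker of mature neutrophils (log2 fold change -0.29, SE 0.354, adjusted p = 0.55). Without Ctrl replicate 1 both fell, Camp at -0.23 (adjusted p = 0.00844) and Ly6g at -0.70 (adjusted p = 0.00912), and with 6 libraries Retnlg fell (log2 fold change -1.34, SE 0.175, adjusted p = 0.0016). A C/EBP motif, TTGCNNAA on either strand, was in 8 of 16 windows of this list (50%), against 8.49% of all windows and 33.3% of 9 eosinophil windows. Shown in the same way are Mmp8 (chr9:7558309-7558428, plus strand), Ltf (chr9:111019172-111019291, plus strand) and Ngp (chr9:110419688-110419807, plus strand), where Ngp encodes a neutrophil granule protein that rose by 0.59 (adjusted p = 0.00152).
Mmp8: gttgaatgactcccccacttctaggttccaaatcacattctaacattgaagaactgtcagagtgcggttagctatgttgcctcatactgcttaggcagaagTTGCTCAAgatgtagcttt
Ltf: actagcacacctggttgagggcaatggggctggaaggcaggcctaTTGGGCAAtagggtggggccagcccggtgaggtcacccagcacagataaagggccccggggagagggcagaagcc
Ngp: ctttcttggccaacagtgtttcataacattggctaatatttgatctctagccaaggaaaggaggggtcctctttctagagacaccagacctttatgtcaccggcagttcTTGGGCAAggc

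Monocyte and macrophage genes were mixed, with 5 of 23 tested rising and 8 falling. Ly6c2, the antigen of inflammatory monocytes, was listed at 174, 148 and 152 FPKM in Ctrl and at 37.4, 34 and 34 FPKM in IR (log2 fold change -2.14, SE 0.0842, adjusted p = 2.02e-05). Adgre1, which encodes F4/80 of macrophages, was listed at 9.05, 9.48 and 8.22 FPKM in Ctrl and at 2.49, 3.52 and 3.3 FPKM in IR (log2 fold change -1.28, SE 0.116, adjusted p = 0.000375). Neither gene had overlapping groups, while Lyz2, lysozyme, did not pass (log2 fold change 0.04, SE 0.0931, adjusted p = 0.756). Without Ctrl replicate 1 there were 6 rises and 13 falls. Dendritic cell and MHC class II genes fell in 12 of 15 tested cases and rose in none. H2-Aa, a class II chain, was listed at 9.74, 12.6 and 11.9 FPKM in Ctrl and at 2.47, 3.12 and 3.46 FPKM in IR (log2 fold change -1.63, SE 0.13, adjusted p = 0.000232). H2-DMb1, which loads peptides onto class II, was listed at 8.01, 11.4 and 11.5 FPKM in Ctrl and at 3.0, 3.16 and 3.29 FPKM in IR (log2 fold change -1.43, SE 0.138, adjusted p = 0.000481). Of the 8 class II genes of the list, H2-Aa, H2-Ab1, H2-Eb1, H2-DMa and H2-DMb1 fell by 1.2 to 1.63, H2-Ob and H2-DMb2 by 1.09 and 0.48, and H2-Oa did not pass (log2 fold change -0.31, SE 0.118, adjusted p = 0.0772). Cd74, the invariant chain, was at 91.6 ± 0.896 in Ctrl and 84.4 ± 1.19 FPKM in IR (log2 fold change -0.12, SE 0.0529, adjusted p = 0.124) and did not pass, but fell without Ctrl replicate 1 (log2 fold change -0.11, adjusted p = 0.0439).

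Genes of B cell development moved in both directions, 5 of 12 tested rising, 1 of them called, and 4 falling, 2 of them called, with a median log2 fold change of 0.10. Dntt, the terminal transferase of early lymphoid progenitors, was listed at 14.3, 13.6 and 12.4 FPKM in Ctrl and at 0.35, 0.3 and 0.26 FPKM in IR (log2 fold change -3.47, SE 0.0808, adjusted p = 5.03e-06). Its IR values were all at 0.35 FPKM or lower. Cd24a, a surface protein of B cell precursors and red cell precursors, was listed at 487, 478 and 403 FPKM in Ctrl and at 222, 217 and 214 FPKM in IR (log2 fold change -1.06, SE 0.0903, adjusted p = 0.000298). Vpreb3, related to the surrogate light chain genes of pre-B cells, was listed at 0, 1.64 and 1.61 FPKM in Ctrl and at 3.79, 3.19 and 3.74 FPKM in IR, and its rise (log2 fold change 1.26, SE 0.377, adjusted p = 0.036) was 0.80 without Ctrl replicate 1 (adjusted p = 0.000407). Lyn and Syk, kinases below the B cell receptor that myeloid cells share, rose by 0.96 and 0.73 (adjusted p = 0.000224 and 0.000699), and Cd79a, a receptor chain, had overlapping values with 6 libraries (log2 fold change 0.18, SE 0.148, adjusted p = 0.379) and rose without Ctrl replicate 1 (log2 fold change 0.35, adjusted p = 0.00225). Of 23 listed genes 11 were below the filter, among them Rag1 and Vpreb1. Plasma cell genes rose in 8 of 13 tested cases and fell in none. Mzb1, a chaperone of antibody assembly, was listed at 11.5, 27.8 and 25.2 FPKM in Ctrl and at 60.7, 62.1 and 65.2 FPKM in IR (log2 fold change 1.59, SE 0.307, adjusted p = 0.00725). Ctrl replicate 1 was the lowest of the 6, and without it the rise was 1.21 (adjusted p = 2.1e-05). Derl3, of the secretory quality control, was listed at 6.22, 5.42 and 6.0 FPKM in Ctrl and at 13.7, 13.2 and 12.5 FPKM in IR (log2 fold change 1.04, SE 0.0736, adjusted p = 0.000146). Jchain, which joins IgM and IgA, rose slightly (log2 fold change 0.30, SE 0.0984, adjusted p = 0.0488), and Tnfrsf17, which encodes the plasma cell receptor BCMA, did not pass (log2 fold change -0.00, SE 0.142, adjusted p = 0.999). The immunoglobulin share of the FPKM sum, higher in all IR libraries as given above, moved with these genes, and its part in their values was not tested. The summed FPKM of the plasma cell list were 792, 825 and 710.1 in Ctrl and 1081, 1100 and 1108 in IR.

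T and NK cell genes were low. Of 18 tested, 5 fell and none rose, where 25.6% of all tested genes fell and 17.5% rose. Without Ctrl replicate 1 there were 2 rises and 6 falls, against 25.1% and 34.8% of all tested genes. Lck, the kinase of the T cell receptor, was listed at 6.72, 6.85 and 6.94 FPKM in Ctrl and at 4.16, 4.59 and 3.97 FPKM in IR (log2 fold change -0.58, SE 0.0713, adjusted p = 0.00126). Cd3e, a lineage marker of the gate, was listed at 1.65, 1.55 and 1.21 FPKM in Ctrl and at 0.79, 0.76 and 0.81 FPKM in IR (log2 fold change -0.46, SE 0.102, adjusted p = 0.0119). Its level was at or under 1.65 FPKM throughout. Genes of bone and stroma fell in 9 of 14 tested cases, all 9 called, and rose in 1. Col1a1, a chain of type I collagen, was listed at 79.3, 85.3 and 100.2 FPKM in Ctrl and at 5.8, 6.26 and 5.87 FPKM in IR (log2 fold change -3.67, SE 0.096, adjusted p = 5.17e-06). Bglap, osteocalcin of osteoblasts, was listed at 11.3, 22.5 and 19.9 FPKM in Ctrl and at 0.14, 0 and 0.07 FPKM in IR (log2 fold change -4.09, SE 0.239, adjusted p = 7.03e-05), its copy Bglap2 sharing much of its sequence. Sparc and Ibsp, matrix proteins of bone, fell by 3.05 and 2.3 on the log2 scale (adjusted p = 8.7e-06 and 0.000136). Cxcl12, the ligand of CXCR4 that stromal cells secrete, went from a mean of 3.93 FPKM in Ctrl to 0.373 in IR (log2 fold change -1.84, SE 0.0777, adjusted p = 2.66e-05). Most of these are genes of stromal cells, although megakaryocytes also express Sparc. The summed FPKM of the list was 222 to 256 in Ctrl and 36.1 to 39.3 in IR, and the endothelial markers Cdh5 and Kdr did not pass the filter. The part of such cells in the other falls was not tested.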

How the data were processed

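Per the labels, stranded mRNA libraries were made from RNA purified on micro columns. The submitters' processing notes name fastp, HISAT2 and StringTie with GRCm38 (mm10), whereas the study's methods name fastp and RSEM. The annotation is not given in the sources used here. The deposited values carry no unit and were read as FPKM computed by the authors, one table per library, with 31340 rows for 31272 names (for 62 names with several rows, the row with the highest mean was kept). FPKM hold no read counts, so the depth is unknown, no counting interval is given, and a value of 0 means listed at 0.

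Groups came from the titles. The 3 IR and 3 Ctrl libraries were compared with limma 3.58.1 (lmFit and eBayes with trend, R 4.3.3) on log2(FPKM + 1), for the 12066 genes that reached 1 FPKM in 3 or more of the 6 libraries. All adjusted p-values are limma's, with Benjamini-Hochberg adjustment over these genes. As FPKM are not counts, the count test of the study's methods was not used. On simulated data in which 200 genes had a log2 change of 1.5, 94.5% to 98% of them were called in 10 runs, with at most 6 other genes. The simulated noise was normal, independent between libraries and of each gene's fitted spread. It held no deviating library such as Ctrl replicate 1, so the runs cannot show how the fit performs on the real libraries. An exact two-sided permutation of 3 against 3 libraries cannot give a p below 0.1, so none was used.

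The 37 lists, the 65 panel genes and the comparison were chosen with earlier results of these data known, and no test was made over a list. Named were, per list, up to 3 members with the largest fold change among those called with 6 libraries and without Ctrl replicate 1 at a mean of at least 5 FPKM in a group (for lists with none, 1 changed member), and the panel. Some of these are not reported here. Other members named in the text were chosen after their values were seen. In lists where no member rose or fell, 0 members had an unadjusted limma p under 0.05 in that direction, except 1 T and NK cell gene that was higher. Where none was called, 0 members were beyond 1 on the log2 scale at an unadjusted limma p under 0.05. Gene positions are from GENCODE M21 (GRCm38), in which 96.7% of names matched 1 gene, and promoter windows from RefSeq (GRCm38.p6). The alternatives were another pseudocount (0.1), filters, scalings and variance model, all 12 libraries in one fit, the replicate block, summed rows, and leaving out each library. Plots were made in Python 3.11.15 with matplotlib 3.10.9.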

Additional observations from a re-analysis of the deposited data

How the results depend on the processing

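With a pseudocount of 0.1 there were 457 higher and 908 lower calls in place of 366 and 552, and the higher share of calls went from 39.9% to 33.5%. Restricting the genes to a mean of at least 10 FPKM left 211 higher and 174 lower calls, with 1299 rises and 961 falls. The counts are smaller as fewer genes were tested, but the balance turned as well, from 40.7% to 57.5% rises among changed genes and from 39.9% to 54.8% higher among called genes, and the cause of that turn was not tested. Leaving out each library in turn gave 343 to 387 higher and 544 to 583 lower calls, 1397 to 3031 rises and 2046 to 4197 falls. The highest counts of changed genes were those without Ctrl replicate 1, and the lowest those without IR replicate 1, 2 or 3 (1423, 1397 and 1409 rises, 2046, 2058 and 2055 falls), and the cause was not tested. With the replicate block, 370 higher and 557 lower genes were called, and 1768 rose and 2537 fell. Correlations of deviations from the group means were 0.07, 0.00 and 0.03 for same-numbered libraries. Ctrl replicate 2 with IR replicate 3, which differ in number, gave 0.12. Correlations this small cannot tell whether the numbers pair the samples, which is left unknown.

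Of the 134 named genes tested, 113 kept their side of the threshold under each of the 16 alternatives that tested them. Those that passed also kept their direction. Stricter filters left some of them out, with 95 tested at a mean of at least 10 FPKM. The others gave 52 values that no longer passed and 22 that newly passed, and no passing value reversed. A change of sign between values that did not pass, as for Il7r (0.01 and -0.16 without Ctrl replicate 1), was not counted. Counts of changed members over the 37 lists stayed within 1.5 times in 1021 cases, were smaller in 114 and larger in 49. With 3 libraries a group, unknown depth and no record of separate animals, differences near the threshold are the least certain.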

Other observations

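Beside the heart muscle genes, single members of several lists depended on Ctrl replicate 1. Ldhb, the heart-type lactate dehydrogenase chain, was listed at 4.44, 14.2 and 13.7 FPKM in Ctrl and at 6.03, 5.18 and 6.38 FPKM in IR, with a log2 fold change of -0.64 (adjusted p = 0.235) that became -1.13 (adjusted p = 0.000115) without that library. Srxn1, which repairs peroxiredoxins, changed from 0.34 to -0.16 and Mgp, a matrix protein of stroma, from 0.56 to 0.06. Ly6g was listed at 3.88, 11.1 and 9.85 FPKM in Ctrl and at 6.37, 4.77 and 7.33 FPKM in IR, with Ctrl replicate 1 the lowest of the 6. Stfa2l1, a stefin of neutrophils, was listed at 0, 1.71 and 1.68 FPKM in Ctrl and at 15.8, 13.2 and 14.4 FPKM in IR, a rise of 2.99 with 6 libraries and of 2.52 without Ctrl replicate 1 (adjusted p = 0.00152 and 5.43e-06).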
